A study of Mus musculus with 12 samples.

Results

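The TRiC chaperonin, also called CCT, was followed across its 8 subunits, Tcp1, Cct2, Cct3, Cct4, Cct5, Cct6a, Cct7 and Cct8, which are 8 of the 56691 mouse genes in the count table. The members were taken by symbol, as the full set of genes that encode the complex. The samples were 12 libraries of sorted spleen CD4+ T cells, each from another Tg4 Nr4a3-Tocky Il10-GFP mouse, with 3 mice per group and 4 groups. Tg4 mice carry a transgenic T cell receptor for a myelin basic protein peptide, and in Nr4a3-Tocky mice a Timer protein turns from blue to red after Nr4a3 has been transcribed, so that the sorted cells with both colours are those whose receptor signal had persisted. All 4 groups carried both reporters and the same receptor and received 4 mg/kg of [4Y]-MBP peptide, then antibody 24 h later, then 0.4 mg/kg of peptide after a further 30 min, with spleens taken 12 h after the second peptide. For the study as a whole the methods give mice of typically 6 to 8 weeks and of both sexes. The antibodies were a pool of rat IgG1 and IgG2a (isotype), anti-PD-L1, which was clone MIH5, anti-Lag3, which was clone C9B7W, or both together (CB). The sort used a different CD4 fluorochrome for each group, so that dye and treatment cannot be told apart, and bulk libraries of a spleen cell population do not separate a change in the number of cells of a type from a change in RNA per cell.

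TRiC is a double ring in the cytosol, with each ring built from 1 copy of all 8 subunits. It takes up newly made proteins, closes over them when ATP is hydrolysed and lets them fold inside. Actin and tubulin are its classical clients, and proteins with WD40 propellers, such as G protein beta subunits and the cell cycle activator Cdc20, also depend on it. Prefoldin hands clients to the ring, and phosducin-like proteins act as cofactors. T cells that leave rest and enlarge make protein at a high rate, and loss of Cct8 in mouse T cells is known to impair their maturation and activation.

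The 8 genes lie on 8 different chromosomes (GRCm38, GENCODE vM21): Tcp1 on chromosome 17 from 12915701 to 12925067, Cct2 on chromosome 10 from 117051001 to 117063814, Cct3 on chromosome 3 from 88297116 to 88321767, Cct4 on chromosome 11 from 22990519 to 23003780, Cct5 on chromosome 15 from 31590800 to 31601804, Cct6a on chromosome 5 from 129786998 to 129846371, Cct7 on chromosome 6 from 85451514 to 85468475 and Cct8 on chromosome 16 from 87483326 to 87495873. This annotation types Cct6a as a processed transcript, with a longer span than any other subunit, and the annotation release behind the counts is not given in the sources used here, so that the exons on which reads of Cct6a were counted are uncertain. Promoters of 7 subunits were found in the RefSeq sequence table for GRCm38.p6 (Cct4 was not matched). The 250 bases before the start site are printed for 4 of them, 5′ to 3′ on the gene's strand. Cct6a and Cct3 are shown because they were called between CB and isotype, and Cct7 and Cct8 because they were not. Capitals mark the letters of the motifs searched on both strands.
Cct6a, chr5:129787106-129787355, plus strand: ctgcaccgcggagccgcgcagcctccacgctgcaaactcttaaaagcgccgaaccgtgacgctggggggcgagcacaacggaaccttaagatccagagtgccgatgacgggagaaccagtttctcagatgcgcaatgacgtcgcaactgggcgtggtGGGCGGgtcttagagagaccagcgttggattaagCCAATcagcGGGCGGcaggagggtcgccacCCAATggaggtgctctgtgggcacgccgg
Cct3, chr3:88296885-88297134, plus strand: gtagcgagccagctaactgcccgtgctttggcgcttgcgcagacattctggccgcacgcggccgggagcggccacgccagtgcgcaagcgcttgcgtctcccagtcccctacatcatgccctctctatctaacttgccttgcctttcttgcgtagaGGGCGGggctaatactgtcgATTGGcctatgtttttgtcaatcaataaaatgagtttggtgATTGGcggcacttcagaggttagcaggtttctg
Cct7, chr6:85451255-85451504, plus strand: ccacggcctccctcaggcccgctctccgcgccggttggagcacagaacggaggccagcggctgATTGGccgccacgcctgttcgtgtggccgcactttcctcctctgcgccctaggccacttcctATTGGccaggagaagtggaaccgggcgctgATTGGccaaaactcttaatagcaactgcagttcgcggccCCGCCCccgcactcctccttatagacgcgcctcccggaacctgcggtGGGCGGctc
Cct8, chr16:87495870-87496119, minus strand: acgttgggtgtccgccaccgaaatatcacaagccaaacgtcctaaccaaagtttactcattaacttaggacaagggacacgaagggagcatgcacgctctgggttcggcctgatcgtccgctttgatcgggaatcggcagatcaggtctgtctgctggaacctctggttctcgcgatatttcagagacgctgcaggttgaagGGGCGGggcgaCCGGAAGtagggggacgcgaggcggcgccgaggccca

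The GC box (GGGCGG, or CCGCCC on the other strand), the letters bound by Sp1, was found in the promoters of 7 of 7 subunits and in 32.7% of all 32851 promoter windows of the same length. The CCAAT box (CCAAT or ATTGG), bound by NF-Y, was found in Tcp1, Cct3, Cct6a and Cct7, which are 4 of 7, and in 33.9% of all windows. The ETS motif (CCGGAAG or CTTCCGG) was found in Cct2 and Cct8 (6.91% of all windows), and the heat shock element core (GAANNTTC) in Cct2 alone (6.69%). The heat shock match lay in the Cct2 window that falls inside the annotated gene, and the other Cct2 window had none. The NFAT core (TGGAAA or TTTCCA) was found in Tcp1 and Cct5 (18.6%), and the E-box CACGTG in 0 of 7 (6.02%). For Cct2 and Cct5 a match in either of their 2 windows was counted, whereas the shares over all windows count each window once. The subunit windows held 45.2% (Cct5) to 66.8% (Cct2) G or C letters, against a median of 52.4% over all windows. The shares are not matched for this. No motif contains another. The 2 subunits called between CB and isotype and the uncalled Cct7 shared the CCAAT and GC boxes, so these letters did not separate called from uncalled subunits.

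All 8 subunits were well counted. Each had between 2946 reads (Tcp1) and 15251 reads (Cct8) per sample, and together they took 0.321% to 0.377% of the reads on genes, of which there were 16449370 to 22151025 per sample. Every subunit passed the filter of at least 30 reads in sum, which 15138 genes passed. Levels are given as CPM, the counts scaled to a common library size with TMM factors, with the SD over 3 mice. Libraries were made from 3′ ends, and the levels of different subunits are not compared. Of 16 pseudogene copies of the subunits named in RefSeq, 10 had a row in the table, 9 of these had 0 reads and the tenth, a copy of Cct3, had 2 reads. Tcp1, Cct6a and Cct7 overlap an oppositely oriented gene at their 5′ ends (Mrpl18, Psph and Pradc1), and the 3′ ends of Tcp1 and Cct8 overlap an opposite gene too, Acat3 by 1255 bases and Usp16 by 192 bases. The strand setting of the counting is not given in the sources used here. In all samples together Usp16 had 12294 reads and Cct8 had 161304, and Acat3 had 0 reads and Tcp1 had 56435. Whether reads of these partners were counted on the subunits was not tested.

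Of the 7 CD4 T cell markers, 7 were detected, with summed levels of 2353 to 2488 CPM in the isotype samples and 2033 to 2176 CPM in the CB samples. B cell markers (5 of 5 detected) summed to 1.52 to 20.6 CPM over all samples, myeloid markers (4 of 5, Cd14 at 0 reads) to 4.30 to 14.3 CPM and NK cell markers (3 of 3) to at most 4.70 CPM. The myeloid sum was 4.66 to 12.1 CPM in the isotype samples and 4.71 to 9.19 CPM with anti-Lag3. It was 12.3 to 14.3 CPM with anti-PD-L1 and 4.30 to 7.52 CPM in the CB samples. Cd8a and Cd8b1 summed to 40.9 to 45.3 CPM in the isotype samples and to 25.0 to 33.2 CPM in the CB samples, without overlap. Their sum was 29.2 to 46.4 CPM with anti-Lag3 and 24.6 to 30.5 CPM with anti-PD-L1. The part of the myeloid and CD8 markers in the results was not tested. Erythroid markers (5 of 5) summed to 241 to 444 CPM in the isotype samples and to 149 to 198 CPM in the CB samples, and their part in the results was not tested.

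Combined blockade was compared with isotype first. In the CB samples 2 of 8 subunits rose, Cct6a by 1.42-fold and Cct3 by 1.30-fold, and none fell. The fitted log2 fold changes of all 8 were above 0, from 0.07 for Cct2 to 0.50 for Cct6a, with a median of 0.26, whereas the median over all 15138 genes was 0 and that over the 606 genes with a mean CPM of at least that of the lowest subunit was 0.01. Without isotype replicate 1 the value of Cct2 was -0.00724. At an adjusted p under 0.05, 4.29% of all genes were called in this comparison in either direction and 2.33% were called higher. Among the 606 genes 10.2% were called higher. An unadjusted p under 0.05 with a higher level in CB was reached by 5 of 8 subunits and by 7.64% of all genes.

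**Figure D1:**
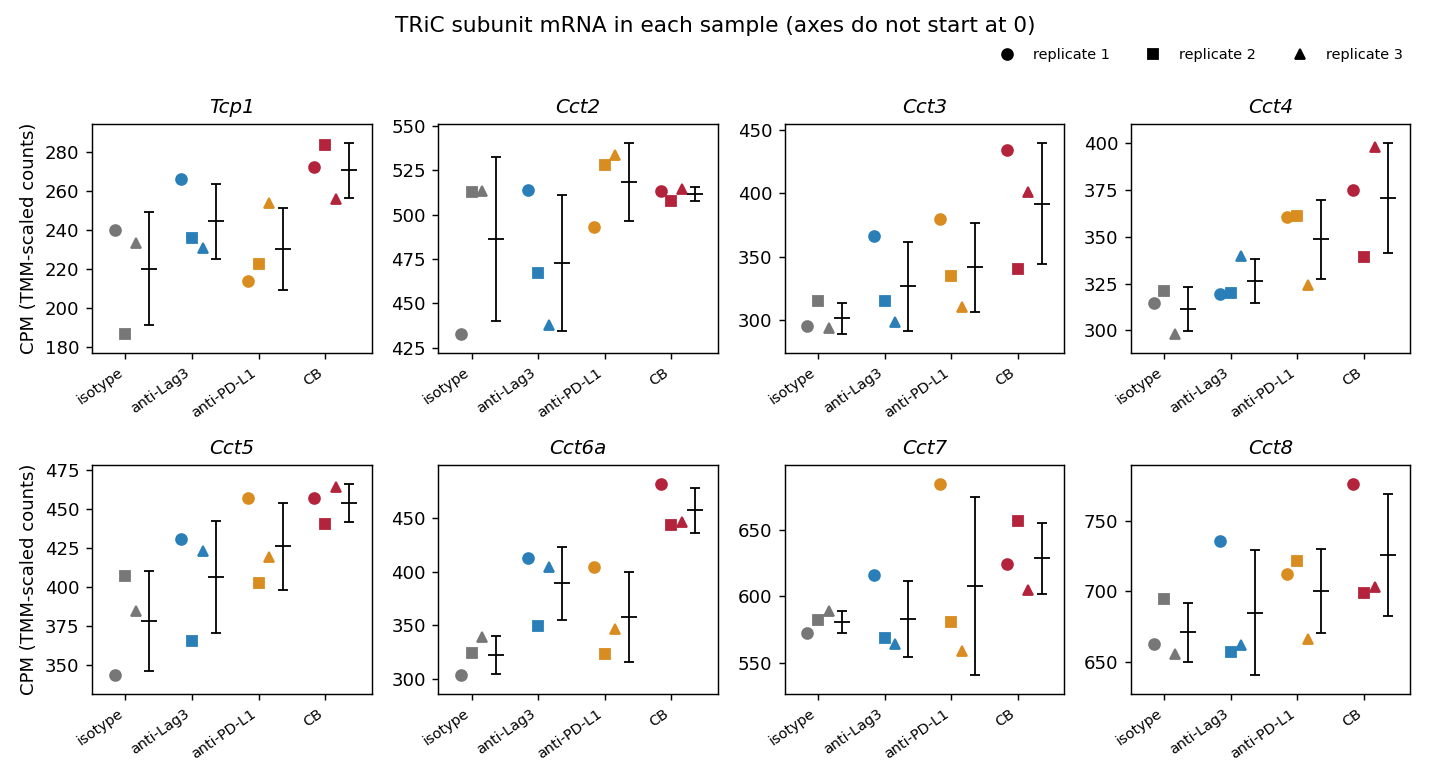
Level of each subunit in each of the 12 samples, in CPM after TMM scaling on the vertical axis (axes do not start at 0), by group on the horizontal axis. Symbols are the 3 mice of a group, and the bar beside them is the mean with its SD. The 3 CB samples of Cct6a lie between 443 and 482 CPM, above the other 9 samples, while those of Cct2, from 507 to 514 CPM, overlap the isotype samples, from 433 to 513 CPM.

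Cct6a, the zeta subunit, was at 304, 324 and 339 CPM in the 3 isotype samples and at 482, 443 and 447 CPM in the 3 CB samples. Every CB sample was above every isotype sample, and the gap was wider than the range of either group. The group means were 322 ± 17.8 and 457 ± 21.2 CPM (SD, n = 3 each), a log2 fold change of 0.50 (standard error 0.10, 95% interval 0.30 to 0.71, BH-adjusted p = 0.00269 in edgeR's quasi-likelihood test). The call held without any 1 of the 12 samples, with adjusted p-values from 0.00135 to 0.0232, and was lost, among 21 alternative settings, only when DESeq2 tested for a change beyond 0.2 on the log2 scale (adjusted p = 0.0944). Psph, which encodes phosphoserine phosphatase and starts from the opposite strand at the same place, had a log2 fold change of 0.10 (95% interval -0.25 to 0.45) in the same comparison.

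Cct3, the gamma subunit, which sits beside the zeta subunit in the ring, was at 295, 315 and 294 CPM in the isotype samples and at 434, 340 and 401 CPM in the CB samples. The groups did not overlap, and the second CB sample was the nearest to the isotype range. The log2 fold change was 0.38 (standard error 0.11, 95% interval 0.16 to 0.60, BH-adjusted p = 0.0409, edgeR). This call was lost without isotype replicate 1, 2 or 3, without CB replicate 1 or 3 and without anti-Lag3 replicate 2, with adjusted p-values from 0.0528 to 0.222 and log2 fold changes from 0.30 to 0.41. It was also lost in glmTreat's and DESeq2's tests against 0.2 (adjusted p = 0.251 and 0.933) and with library totals in place of TMM factors (adjusted p = 0.0647), and was kept in 12 of 21 alternative settings.

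Tcp1, Cct4 and Cct5 made up a second set, with an unadjusted p under 0.05 and an adjusted p above it. Tcp1, the alpha subunit after which the complex was named, was at 240, 187 and 233 CPM in the isotype samples and at 272, 284 and 256 CPM in the CB samples. Cct4, the delta subunit, was at 314, 321 and 298 CPM in the isotype samples and at 375, 339 and 398 CPM in the CB samples. Cct5, the epsilon subunit, was at 344, 407 and 385 CPM in the isotype samples and at 457, 440 and 464 CPM in the CB samples. In each of the 3 genes the lowest CB sample was above the highest isotype sample. Their log2 fold changes were 0.30 (95% interval 0.07 to 0.53, adjusted p = 0.157), 0.25 (0.06 to 0.45, adjusted p = 0.156) and 0.26 (0.07 to 0.46, adjusted p = 0.138) in that order, by edgeR. Without isotype replicate 2, the lowest of its group, the value of Tcp1 was 0.19. DESeq2's test against 0 called Cct4 and Cct5 as well as Cct6a and Cct3, and it called 6.06% of all genes.

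Cct7, Cct8 and Cct2 had the smallest differences. Cct7, the eta subunit, was at 572, 582 and 588 CPM in the isotype samples and at 624, 657 and 604 CPM in the CB samples. Cct8, the theta subunit, was at 663, 695 and 655 CPM in the isotype samples and at 777, 699 and 703 CPM in the CB samples. In both genes the groups were just apart, and the log2 fold changes were 0.11 for each, with 95% intervals from -0.07 to 0.29 and from -0.05 to 0.28. Without CB replicate 1 the value of Cct8 was 0.06. Cct2, the beta subunit, which has also been described as a receptor for aggregates in autophagy, was at 433, 513 and 513 CPM in the isotype samples and at 513, 507 and 514 CPM in the CB samples. Its groups overlapped, and the log2 fold change was 0.07 (95% interval -0.11 to 0.26, adjusted p = 0.815, edgeR). It was -0.00724 without isotype replicate 1, the lowest of its group. The intervals of these 3 subunits leave room for changes of up to 0.29 on the log2 scale. Usp16, the gene that overlaps the 3′ end of Cct8, had a log2 fold change of 0.45 (95% interval 0.08 to 0.82, adjusted p = 0.205, edgeR) and 44.5 ± 10.2 CPM (SD, n = 3) in the isotype group.

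Every CB sample was above every isotype sample for 7 of 8 subunits, all but Cct2, against 10.4% of all genes and 21.1% of the 606 genes of like or higher level. This count was 6 with DESeq2's size factors, where Cct8 overlapped, and 4 with library totals, where Tcp1, Cct7 and Cct8 overlapped as well as Cct2. The 4 that did not overlap under any of the 3 scalings were Cct3, Cct4, Cct5 and Cct6a. TMM factors were between 0.946 (CB replicate 1) and 1.06 (isotype replicate 1). The gene with the most reads, ENSMUSG00000119584, took 14.3% to 20.9% of the reads in the isotype samples and 16.1% to 21.9% in the CB samples, and its part in the scaling was not tested.

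**Figure D2:**
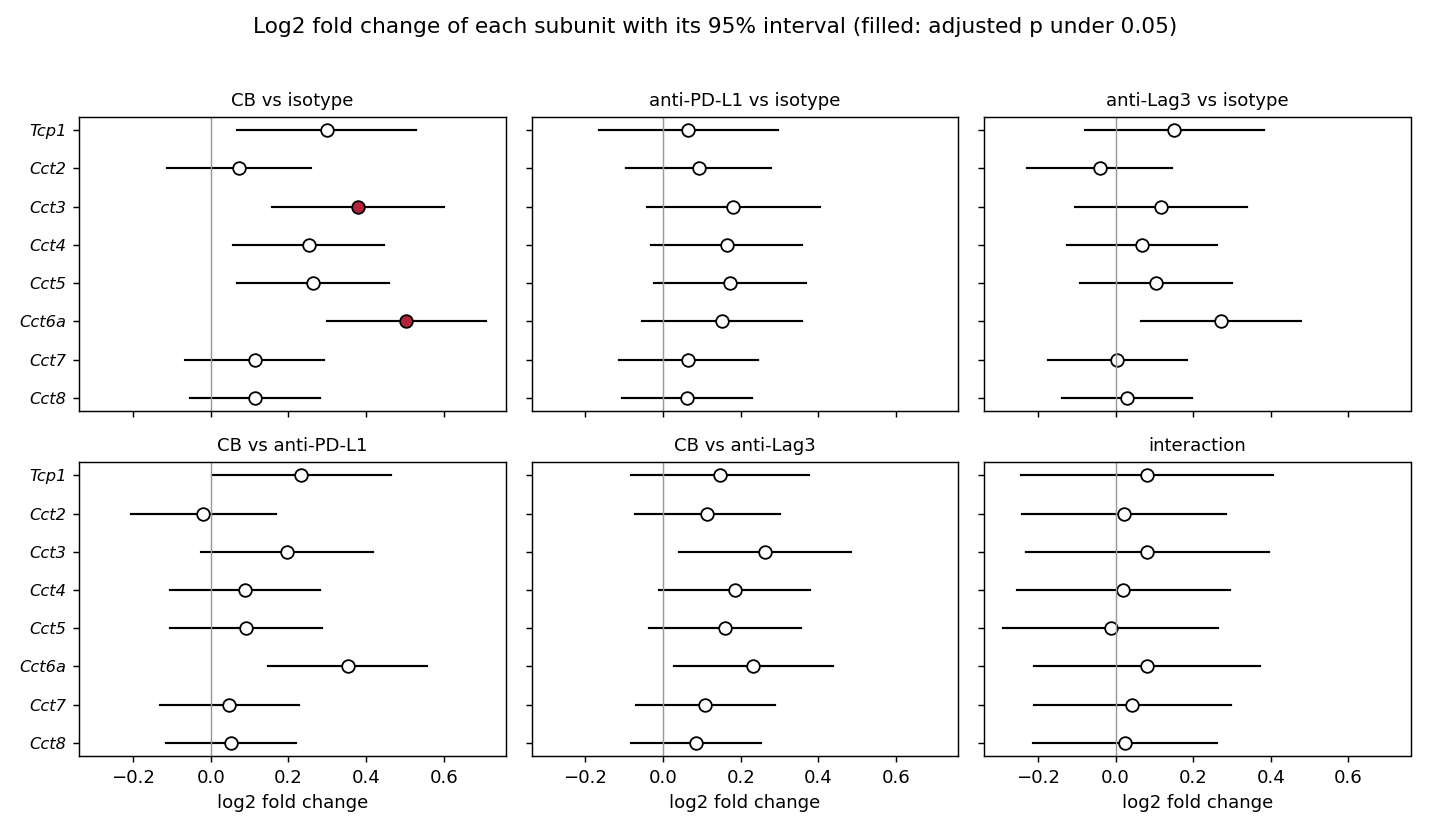
Log2 fold change of each subunit (horizontal axis) in 6 comparisons, with its 95% interval as a line; the interaction adds isotype to CB and takes off the 2 single antibodies. Filled points, Cct6a and Cct3 in CB vs isotype, have an adjusted p under 0.05, and the interaction intervals of all 8 subunits include 0.

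Each single antibody was then compared with isotype. With anti-PD-L1, 0 of 8 subunits were called, as were 0.033% of all genes, and 0 of 8 had an unadjusted p under 0.05. This last count was 1 without isotype replicate 2 or without anti-PD-L1 replicate 3. All 8 fitted values were above 0, from 0.06 (Cct8) to 0.18 (Cct3) on the log2 scale, with a median of 0.12 and with 95% intervals that lay between -0.16 and 0.40. Cct4 was at 360, 361 and 324 CPM with anti-PD-L1, each above the highest isotype sample, and was the only subunit whose groups did not overlap, which 5.34% of all genes reached. With library totals in place of TMM factors Cct4 overlapped and Cct5 did not. The other 7 subunits overlapped the isotype range with TMM. Cct3 was at 380, 335 and 311 CPM and Cct6a at 405, 323 and 347 CPM, so that replicate 1 was the highest sample of both.

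With anti-Lag3, 0 of 8 subunits and 0% of all genes were called against isotype in edgeR's test, while 1 of 8 subunits had an unadjusted p under 0.05. That subunit was Cct6a, at 413, 350 and 405 CPM, all above the isotype samples, with a log2 fold change of 0.27 (95% interval 0.07 to 0.48, unadjusted p = 0.0116, adjusted p = 0.805). Without isotype replicate 1 or without anti-Lag3 replicate 1, 0 of 8 subunits had an unadjusted p under 0.05 in edgeR's test. Every anti-Lag3 sample above every isotype sample was found for 1 of 8 subunits and for 5.25% of all genes. The other 7 overlapped. Cct2 was at 514, 467 and 438 CPM and had a fitted log2 fold change of -0.04, with a 95% interval from -0.23 to 0.15. Cct7 was at 616, 568 and 564 CPM and Cct8 at 736, 656 and 662 CPM, with log2 fold changes of 0.00 and 0.03. DESeq2's test against 0 called 9 genes in this comparison and 0 subunits.

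The groups with single antibodies were next compared with CB. Against anti-PD-L1, 0 of 8 subunits were called in edgeR's test, as were 0.37% of all genes, and 2 of 8 had an unadjusted p under 0.05. By that p they ranked 160 (Cct6a) and 1305 (Tcp1) among the 15138 genes. The count of 2 fell to 1 without anti-PD-L1 replicate 2, anti-Lag3 replicate 2 or 3 or CB replicate 1. It was also 1 with DESeq2's size factors, with only the groups compared and with library totals. Cct6a was higher in every CB sample than in every anti-PD-L1 sample, with a log2 fold change of 0.35 (standard error 0.10, 95% interval 0.15 to 0.56, unadjusted p = 0.00158, adjusted p = 0.149, edgeR), and its adjusted p was 0.0351 in DESeq2's test against 0, which called 178 of the 15138 genes. Tcp1, at 214, 223 and 254 CPM with anti-PD-L1, was also below every CB sample (log2 fold change 0.23, 95% interval 0.00 to 0.46). These were 2 of 8 subunits without overlap, against 6.94% of all genes, and with library totals only Cct6a was. Against anti-Lag3, 0 of 8 subunits were called and 0.694% of all genes were, and 2 of 8 subunits, Cct6a and Cct3, had an unadjusted p under 0.05 in edgeR's test. By that p Cct3 ranked 817 and Cct6a 948 among the 15138 genes. DESeq2's test against 0 also called 0 subunits. In edgeR's test 0 subunits had an unadjusted p under 0.05 without anti-Lag3 replicate 2, without CB replicate 1 or with library totals. The count was 1 without replicate 3 of either group and 3 without CB replicate 2. Cct5, at 431, 365 and 424 CPM with anti-Lag3, and Cct6a were below every CB sample, which is 2 of 8 subunits against 7.68% of all genes, and with library totals only Cct6a was. The log2 fold change of Cct6a was 0.23 (95% interval 0.03 to 0.44, adjusted p = 0.444) and that of Cct3 was 0.26 (0.04 to 0.48, adjusted p = 0.406), both by edgeR.

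Between anti-PD-L1 and anti-Lag3, 0 of 8 subunits and 0% of all genes were called in edgeR's test, 0 of 8 had an unadjusted p under 0.05, and the fitted values ran from -0.12 (Cct6a) to 0.13 (Cct2). The interaction asks whether the log2 change with CB differs from the sum of the changes with each antibody. It was called for 0 of 8 subunits and 0% of all genes in edgeR's test, with 0 of 8 subunits at an unadjusted p under 0.05. The 8 estimates ran from -0.01 (Cct5) to 0.08 (Tcp1), and each subunit's 95% interval included 0. The interval was -0.21 to 0.26 for Cct8, with a standard error of 0.12, and -0.24 to 0.41 for Tcp1, with a standard error of 0.16.

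The sum over the 8 subunits was 3271 ± 94.1 CPM (SD, n = 3) in the isotype group, 3433 ± 202 CPM with anti-Lag3, 3531 ± 154 CPM with anti-PD-L1 and 3811 ± 113 CPM in the CB group. The isotype samples lay between 3165 and 3343 CPM and the CB samples between 3711 and 3934 CPM. The highest anti-PD-L1 sample, at 3705 CPM, reached almost to the lowest CB sample, and the lowest anti-PD-L1 sample, at 3413 CPM, was just above the isotype samples. The anti-Lag3 samples, from 3278 to 3661 CPM, overlapped both the isotype and the anti-PD-L1 range. Within this sum the share of Cct6a was 9.60% to 10.3% in the isotype samples, 9.30% to 10.9% with anti-PD-L1, 10.7% to 12.0% with anti-Lag3 and 11.8% to 12.2% in the CB samples. The isotype and anti-PD-L1 ranges of this share overlapped, and both the anti-Lag3 and the CB range lay above the isotype range. The share of Cct8 was 19.8% to 20.9% in the isotype samples and 18.6% to 19.7% in the CB samples, and that of Cct2 was 13.7% to 15.5% and 13.0% to 13.7%. Shares of 1 sum move against each other by construction and are given as a description. For Tcp1, Cct3, Cct4, Cct5 and Cct7 the isotype and CB ranges of the share overlapped.

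**Figure D3:**
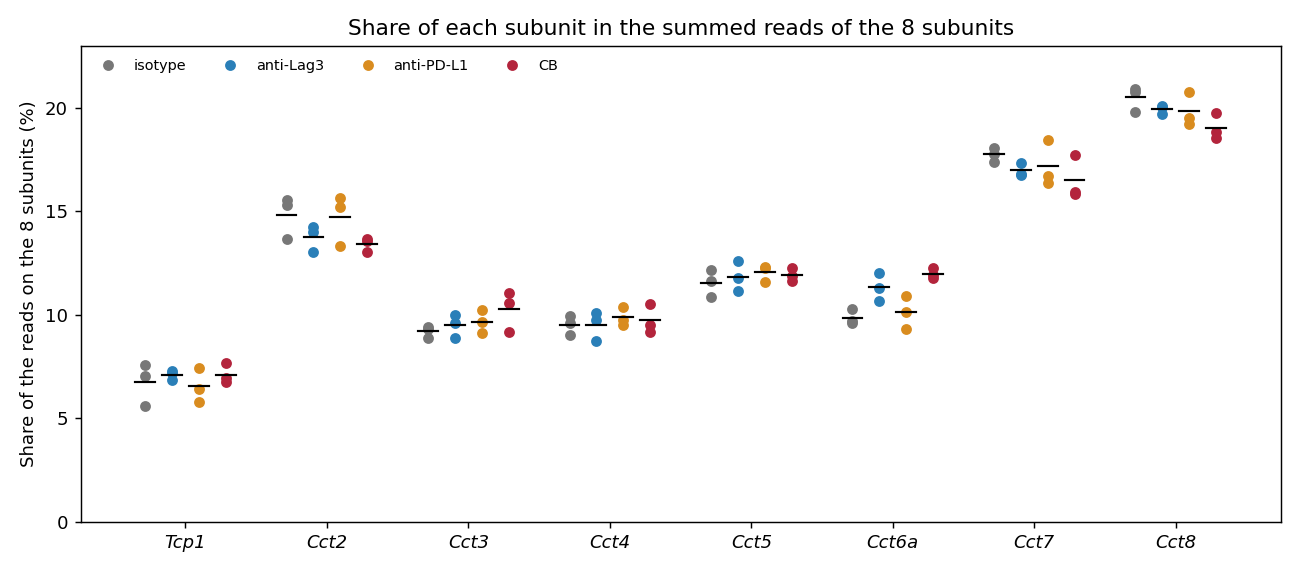
Share of each subunit in the summed CPM of all 8, in percent (vertical axis), for each sample by group; points are mice and black bars are group means. Shares reflect 3′ counts and are to be read within a subunit. The share of Cct6a is 11.8% to 12.2% in the CB samples and 9.60% to 10.3% in the isotype samples.

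The subunits did not all vary together from mouse to mouse. After the group means were removed, the log2 CPM of Cct3 correlated with the mean of the other 7 at r = 0.71 over the 12 samples, that of Cct6a at 0.70, Cct8 at 0.69, Cct5 at 0.63 and Cct7 at 0.50. The values were 0.22 for Cct2, 0.02 for Cct4 and -0.32 for Tcp1. These correlations are a description, since all values of a sample share 1 library and 1 scaling factor.

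The other chaperones and cofactors were then counted from lists. The mitochondrial chaperonin, a ring of the same ancestry, is made of Hspd1 (Hsp60) with its lid Hspe1 (Hsp10), and 1 of its 2 genes rose in CB against isotype. Hspe1 rose from 359 ± 15.2 to 574 ± 14.1 CPM (SD, n = 3 each), a log2 fold change of 0.68 (standard error 0.09, BH-adjusted p = 2.30e-05, edgeR), and the call held in all 21 alternative settings tried. Hspd1 was at 285 ± 7.13 and 357 ± 43.5 CPM, with a log2 fold change of 0.32 and an adjusted p of 0.0991, and it was called in 2 of 21 alternative settings (lowest adjusted p 0.0329). In prefoldin, the co-chaperone that delivers clients, 0 of 6 genes were called, with a median log2 fold change of 0.09. The prefoldin genes with the smallest adjusted p-values were Pfdn5 at -0.39 (0.0579), Pfdn2 at 0.28 (0.445), Pfdn4 at 0.33 (0.585) and Pfdn1 at 0.14 (0.734). Pfdn5 was the only 1 of these 4 with a value below 0, and it was called in 5 of 21 alternative settings, among them DESeq2's test against 0 (adjusted p = 0.00761).

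Of the phosducin-like cofactors 0 of 3 tested genes were called, with log2 fold changes of -0.51 for Pdcl3, 0.22 for Txndc9 and 0.00 for Pdcl. Of the prefoldin-like genes 0 of 3 were called (Pdrg1 at 0.09, Uri1 at 0.06 and Uxt at 0.01). The tubulin cofactors, which join tubulin dimers after TRiC has released them, gave 0 of 6 calls and a median of 0.22, with Tbcb at 0.23, Tbca at 0.21, Tbce at 0.30 and Tbcc at 0.29, while the other 2 were below 0. The heat shock factors, transcription factors of chaperone genes, gave 0 of 2 calls, with Hsf2 at 0.69 and Hsf1 at -0.34. Among the chaperonin-like genes, 0 of 4 tested were called and all of them had means of under 6 CPM in both groups. They were the testis paralogue Cct6b (0.159 CPM in isotype) and the ciliary genes Mkks, Bbs10 and Bbs12. Cct8l1 and Pdcl2 were at 0 reads in all samples, which allows up to 3 reads in sum, counting error only.

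In CB against isotype the fitted log2 fold changes of genes listed as TRiC clients lay on both sides of 0. Of 2 actin genes, Actb fell from 21098 ± 1178 to 18193 ± 1589 CPM (SD, n = 3 each), a log2 fold change of -0.21 (standard error 0.05, BH-adjusted p = 0.00965, edgeR). This call was lost without isotype replicate 2 or without CB replicate 2 or 3 (adjusted p = 0.0519 to 0.0884), and in glmTreat's and DESeq2's tests against 0.2 (adjusted p = 0.62 and 1). Actg1, at 8.29 and 4.46 CPM, had a log2 fold change of -0.89 and an adjusted p of 0.388. Of 13 tubulin genes 0 were called, with a median of 0.00. Tubb5, the beta-tubulin with the most reads here, was at -0.22 (adjusted p = 0.133), Tubb2b at -0.54 (0.207) and Tuba4a at 0.22 (0.268), and Tubb4a, at under 1 CPM, had an adjusted p of 0.397. Of 16 other genes listed as clients or partners of TRiC 1 was called higher and 1 lower. Over all genes 2.33% were called higher and 4.29% in either direction. The lower one was Gnb2, a G protein beta subunit, at 253 ± 15.99 and 168 ± 2.21 CPM (log2 fold change -0.59, adjusted p = 7.72e-04, edgeR). The higher one was Ppp2r2a, a regulatory subunit of the phosphatase PP2A, at a log2 fold change of 0.44 and an adjusted p of 0.0491, a call kept in 9 of 21 alternative settings. Pdcd5 and Mlst8, an mTOR partner with a WD40 propeller, were at 0.37 (adjusted p = 0.164) and 0.69 (0.202). Reads were kept only where they mapped to 1 place, so that levels of actin, tubulin and Hspe1 genes with near-identical copies are uncertain. In the other 6 comparisons 0 genes of these lists were called.

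**Figure D4:**
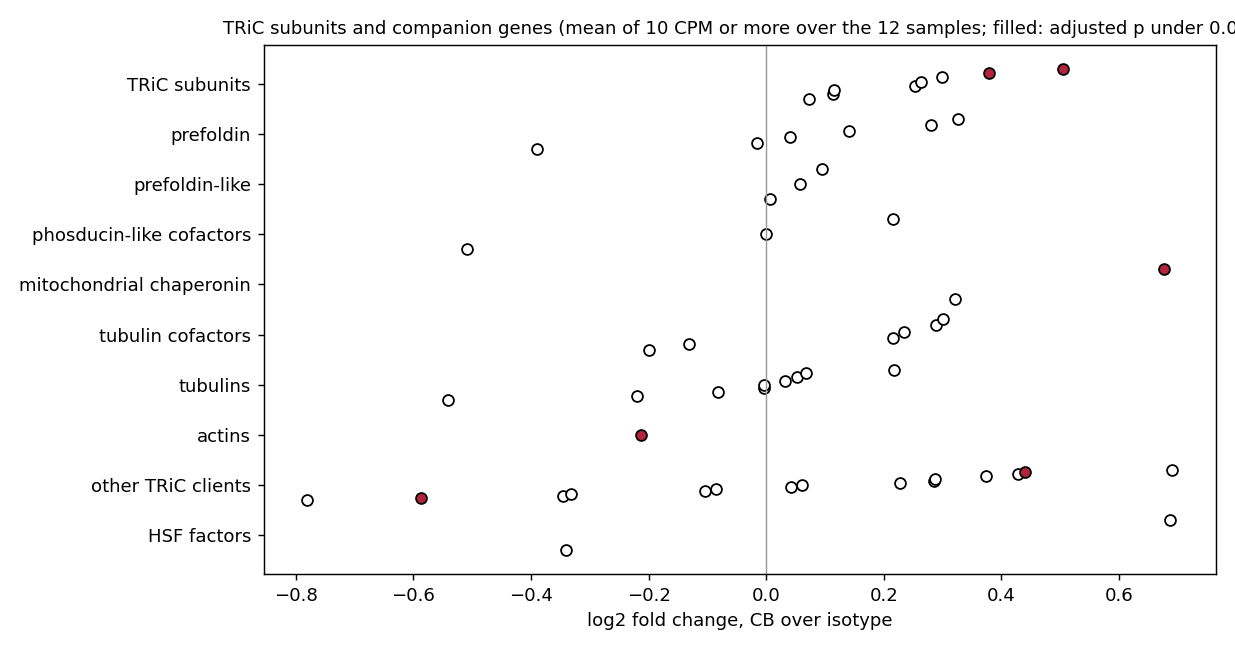
Log2 fold change between CB and isotype (horizontal axis) of the TRiC subunits and of the companion genes with a mean of at least 10 CPM over the 12 samples, by list; each point is a gene and filled points have an adjusted p under 0.05. All 8 subunits lie above 0, from 0.07 to 0.50, while tubulins and the genes listed as other TRiC clients lie on both sides of 0.

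Among the 7341 other genes with a mean of at least 10 CPM, those whose log2 CPM followed the mean of the 8 subunits most closely over the 12 samples were Ncl (Pearson r = 0.957, Spearman rho = 0.972), Nsun2 (0.953 and 0.951), Rsl1d1 (0.951 and 0.944), Rrp1b (0.945 and 0.951) and C1qbp (0.935 and 0.832). Without CB replicates 1 and 3, the samples farthest from the median, r was 0.873 to 0.937, and after removal of the group means r was 0.815 to 0.867. Ncl encodes nucleolin, Nsun2 an RNA cytosine methyltransferase, Rsl1d1 and Rrp1b nucleolar proteins and C1qbp a mitochondrial matrix protein. Their log2 fold changes between CB and isotype were 0.47 (C1qbp) to 0.91 (Rrp1b). The genes were picked for their likeness to a mean that was highest in CB and lowest in isotype, so that both the correlations and these differences are a description, with no test.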

How the data were processed

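Messenger RNA was measured with QuantSeq 3′ libraries (5 ng RNA, 18 PCR cycles, no molecular identifiers stated) in 12 samples. The authors trimmed reads with cutadapt 1.18, mapped them to GRCm38 with STAR 2.6.1a and counted uniquely mapped reads per gene with featureCounts 1.6.4. The deposited values used here are these raw counts, without normalization. The rlog table and 114 spike-in rows (0.72% to 1.29% of counts) were not used. Reads of 1 library made by PCR are not independent molecules.

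Genes with at least 30 reads in sum were tested with edgeR 4.0.16 (R 4.3.3): TMM factors, 1 fit of 4 group means to all 12 samples, quasi-likelihood tests, and p-values adjusted by Benjamini-Hochberg over 15138 genes, threshold 0.05. Intervals are 95%. Log2 CPM carry a prior count of 2. The script was tested on simulated data. DESeq2 1.42.0, glmTreat, other filters and scalings, a replicate block and each sample left out were alternatives, and library totals were added after the data were seen. No duplicated library was found among the pairs of samples within a group, and pairs between groups were not checked for this.

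The 8 subunits, companion lists and tests were chosen with earlier results of these data known. Named companions are up to 4 per list with the smallest adjusted p between CB and isotype, and named like genes the 5 with the largest r among genes with a mean of at least 10 CPM. The locations and overlaps come from GENCODE vM21 and the promoters from RefSeq.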

Additional observations from a re-analysis of the deposited data

How the results depend on the processing

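Between CB and isotype, 2 subunits were called as reported, 4 in DESeq2's test against 0, 0 in DESeq2's test against 0.2, 1 in glmTreat against 0.2 (Cct6a) and 1 with library totals, an alternative chosen after seeing the data. Leaving out 1 sample gave 1 to 2. The other alternatives gave 2. Between CB and anti-PD-L1 the count was 0 as reported and 1 (Cct6a) in DESeq2's test against 0 and with the replicate block (adjusted p = 0.0479). In the other 5 comparisons it was 0 in every setting run. The number of subunits with every CB sample above every isotype sample was 7, fell to 4 with library totals and was 6 with DESeq2's size factors. A set of log2 fold changes was followed through the alternatives. It held all 8 subunits between CB and isotype, and subunits with an unadjusted p under 0.05 in another comparison. Hspe1, Hspd1, Pfdn5, Actb, Gnb2 and Ppp2r2a between CB and isotype were also in it. Within this set 360 values kept their direction and side of the threshold, 27 lost the call, 11 gained one and 1 reversed. The reversed value was that of Cct2 between CB and isotype. It ran from -0.00724 to 0.11 with 1 sample left out and was lowest without isotype replicate 1. Other log2 fold changes were not counted in this way. The median over the 8 subunits, called in no test, also changed sign between the single antibodies without anti-PD-L1 replicate 1 (0.06 to -0.0011) and in the interaction with library totals (0.03 to -0.0033), and between CB and anti-Lag3 it was 0.15 and 0.09 with library totals. The cause of these changes was not tested. The sort was run in batches, and whether the sample numbers mark them is not stated. Deviations from group means correlated at over 0.1 in 11 of 18 same-numbered pairs (-0.04 to 0.30, median 0.13) and in 4 of 36 other pairs (median -0.06), and 8 of 12 samples correlated best with their own number, a hint from the data that the numbers share something. Between CB and anti-PD-L1, 3 subunits had an unadjusted p under 0.05 with the replicate block, against 2 without it. With the block, genes called over all genes rose from 649 to 843 between CB and isotype, from 5 to 23 for anti-PD-L1 vs isotype, from 0 to 9 for anti-Lag3 vs isotype, from 56 to 137 for CB vs anti-PD-L1, from 105 to 208 for CB vs anti-Lag3 and from 0 to 4 for the interaction. DESeq2's test against 0 called 918 genes between CB and isotype, then 56, 9, 178, 280 and 5 in the last 5 of these, and 10 between the single antibodies (0 in edgeR). Its test against 0.2 called 233 genes between CB and isotype and then 11, 2, 18, 41, 2 and 8, and glmTreat called 364, 2, 0, 3, 39, 0 and 0. Without a filter the counts other than CB vs isotype were 40, 14, 150, 252, 10 and 2, and with only the groups compared CB vs anti-PD-L1 gave 4, anti-PD-L1 vs isotype 3 and the single antibodies 1. With 1 sample left out, CB vs isotype gave 394 to 705, anti-PD-L1 vs isotype 0 (without isotype replicate 2) to 10 (without anti-PD-L1 replicate 3), CB vs anti-PD-L1 4 to 57 and CB vs anti-Lag3 42 to 125. With library totals 33 genes were higher and 59 lower between CB and anti-Lag3, against 59 and 46 with TMM. With 3 mice a group, differences as small as those of Cct2, Cct7 and Cct8 could not be told from 0.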
